A study of Homo sapiens with 2 samples.

Results

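Oxidative stress genes were examined in PC3 cells, an established line from a human prostate carcinoma, given a small interfering RNA (siRNA) named for POH1 or a control siRNA. The set held 42 genes of the 58174 gene identifiers in the expression table: NFE2L2, 7 enzyme genes known as NRF2 targets, 7 glutathione genes, 11 thioredoxin and peroxiredoxin genes, both ferritin genes, 6 aldo-keto reductase genes, 3 genes of superoxide dismutases and catalase, and 5 metallothionein genes. Members were taken by name, and all 42 were found. The POH1 siRNA group and the control siRNA group held 1 library each, both from PC3 cells; the siRNA sequence, dose and time of treatment are not given. With 1 library per group there is no replicate error, so no test or p-value was computed, and each difference below separates these libraries only.

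NRF2, the product of NFE2L2, is a transcription factor that is bound by KEAP1, marked with ubiquitin by the CUL3 and RBX1 ligase and destroyed by the proteasome. Oxidants and electrophiles block that marking, and NRF2 then pairs with small MAF proteins at antioxidant response elements and induces genes for glutathione, thioredoxin and NADPH production. POH1, encoded by PSMD14, is a deubiquitinase of the proteasome's regulatory particle. Metallothioneins are small cysteine-rich proteins that bind zinc and copper and are induced through the zinc-sensing factor MTF1 at metal response elements.

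The values are TPM, a transcript abundance per length of transcript that the authors scaled to a fixed total in each library, so levels can be set side by side between genes. Read depth is unknown. PSMD14 stood at 35.1 TPM in the POH1 siRNA library and 50.9 TPM in the control siRNA library, so 69.0% of the control level remained, and 10.7% of all genes had a difference as low or lower. The epithelial markers KRT8, KRT18, KRT19, EPCAM and CDH1 lay between 129 and 1734 TPM in the POH1 siRNA library and between 111 and 1499 TPM in the control siRNA library, while the androgen-responsive genes KLK2 and KLK3 were listed at 0 in both libraries. Of 3 leukocyte, 3 fibroblast and 3 endothelial markers, 1 each reached a mean of 1 TPM (CD14, COL1A1 and PECAM1), PTPRC, CD3E and DCN were at or near 0, and COL1A1 was at 47.8 TPM in the POH1 siRNA library and 30.9 TPM in the control siRNA library; their part in the results was not tested. Mitochondrial genes took 13.1% of the TPM in the POH1 siRNA library and 16.2% in the control siRNA library.

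Sites that match the core of the antioxidant response element are shown first, because they mark the members with such letters next to their start. The letters TGACNNNGC were searched on both strands of the RefSeq promoter table (GRCh38.p14), from 250 bases before to 50 bases after the first start listed for a gene. Of the 31 members with an entry, 7 (22.6%) held a match, against 13.6% of 27305 promoters. Each line runs 5′ to 3′ on the strand of the gene, and capitals mark the match:
PGD, chr1:10398853-10398881, plus strand: cctcgccgggGCAATGTCAtctaggtgct
ME1, chr6:83431170-83431198, minus strand: tctcctgccaTGACTCAGCgcttctcgca
ME1, chr6:83431022-83431050, minus strand: gctgcagtcaGCACCGTCAccccagcagc
GCLM, chr1:93909446-93909474, minus strand: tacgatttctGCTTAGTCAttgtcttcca
GSTP1, chr11:67583736-67583764, plus strand: gccggcgccgTGACTCAGCactggggcgg
TXNRD1, chr12:104215670-104215698, plus strand: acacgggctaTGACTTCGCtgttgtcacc
TXNRD1, chr12:104215761-104215789, plus strand: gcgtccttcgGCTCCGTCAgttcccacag
MT1X, chr16:56682220-56682245, plus strand: gaggcagGCAATGTCAgggaaattgg
MT2A, chr16:56608470-56608498, plus strand: gagccgcaagTGACTCAGCgcggggcgtg
The match begins 34 bases before the start in GCLM, 66 in GSTP1, 104 in MT2A, 137 and, after the start, 12 in ME1, 99 and 8 in TXNRD1, 201 in PGD and 243 in MT1X. In ME1 (the first site), GSTP1 and MT2A it overlaps the letters TGACTCA, the motif of AP-1 factors, which 4.92% of all promoters hold. NFE2L2, NQO1 and the 22 other members with an entry had no match in this window.

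A difference is given as log2(TPM + 1) in the POH1 siRNA library minus log2(TPM + 1) in the control siRNA library. It was read over the 15008 genes with a mean of at least 1 TPM, which 40 of the 42 members reached. Genes from 1.5-fold on this scale, a log2 difference of 0.58, were called higher or lower. Of the 40 members, 2 were higher (5.0%), where 10.2% of all genes were, and 3 were lower (7.5%), where 8.88% of all genes were. From 2-fold on, no member was higher, against 2.15% of all genes, and the same 3 were lower, against 2.93%. The remaining 35 members lay within 1.5-fold. At 1.5-fold the shares of members were below those of all genes. From 2-fold on, the share of lower members (7.5%, 3 genes) was above that of all genes (2.93%), which was not tested. The median difference was 0.12 both in the members and in all genes.

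**Figure D1:**
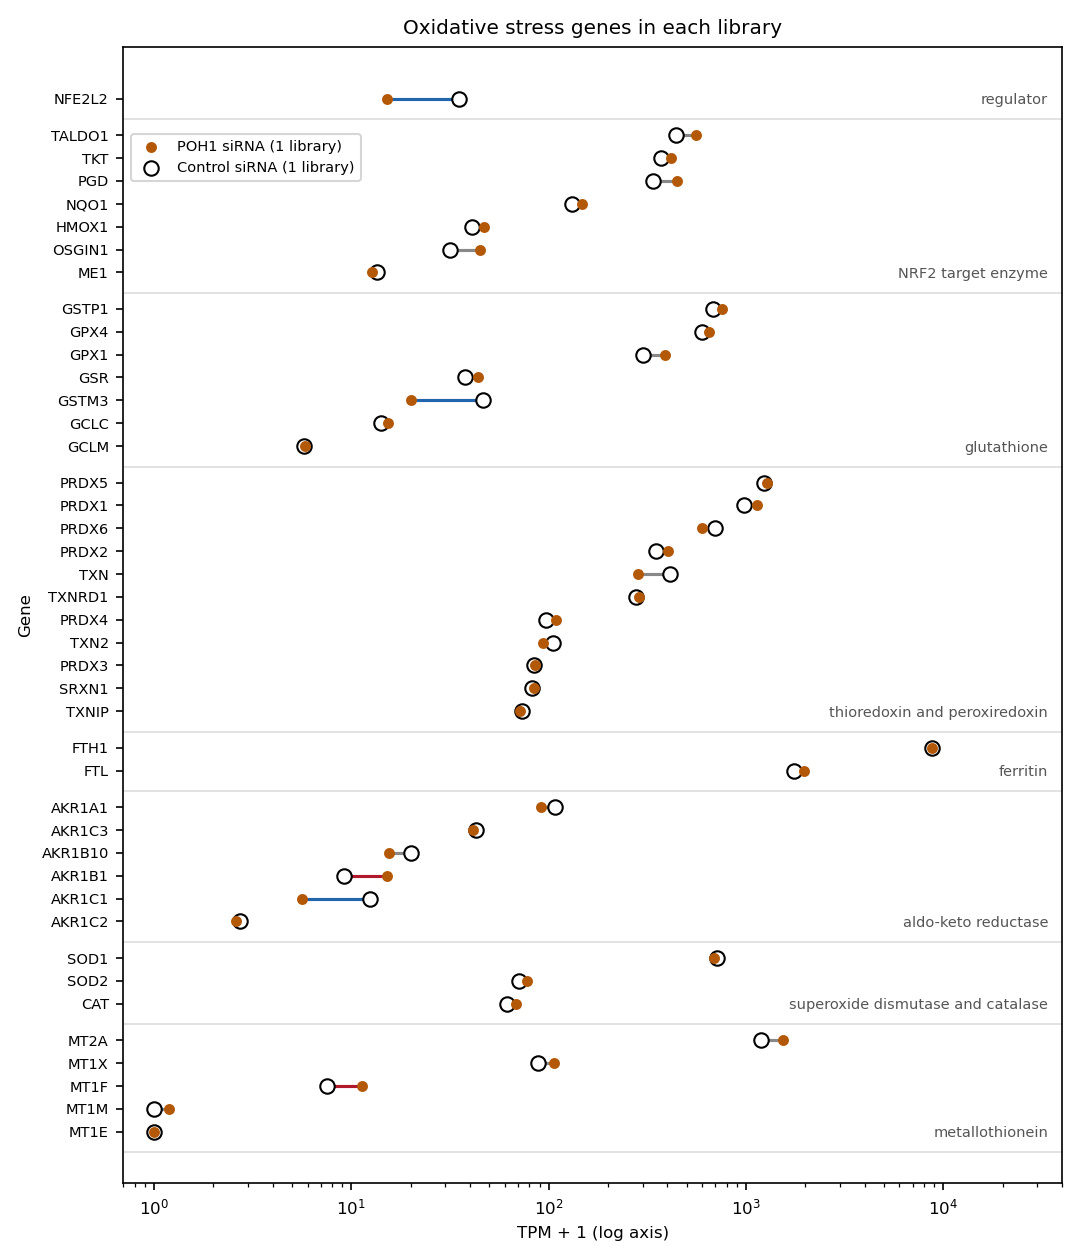
TPM + 1 of each of the 42 genes (log axis) in the POH1 siRNA library (filled points) and the control siRNA library (open points), 1 library each, grouped by role. A blue bar marks a gene at least 1.5-fold lower and a red bar one at least 1.5-fold higher on the log2(TPM + 1) scale: 3 are blue, 2 are red, and 35 genes lie within 1.5-fold.

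NFE2L2 (ENSG00000116044) itself was the member with the lowest difference. It was at 14.1 TPM in the POH1 siRNA library, against 34.3 TPM in the control siRNA library. The POH1 siRNA library thus held 2.44-fold less of this transcript, a log2 difference of -1.23, and 241 of the 15008 genes (1.61%) were as low or lower. A lower level in whole cultures can come from fewer cells with the transcript or from less of it per cell, which cannot be told apart here. None of the 50-base windows of the longest NFE2L2 transcript in GENCODE release 29 occurs in another gene's transcripts. AGPS overlaps NFE2L2 on the opposite strand and was at 3.04 TPM in the POH1 siRNA library and 5.17 TPM in the control siRNA library, and whether reads were assigned by strand is not given. The GC content of NFE2L2 transcripts is 44.0%, where the running median of genes of at least 5 TPM is -0.16. GC adjustment here subtracts that running median and adds back the overall median of those genes, 0.14, so that adjusted values centre near 0.15 over all genes. The adjusted difference of NFE2L2 was -0.92, and -1.06 without the median added back.

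The classical targets of NRF2 did not share the size of that difference. HMOX1, which degrades heme, was at 46.0 TPM in the POH1 siRNA library and 39.9 TPM in the control siRNA library. NQO1, a quinone reductase, was at 147 TPM in the POH1 siRNA library and 130.2 TPM in the control siRNA library. Their log2 differences were 0.20 and 0.17, slightly above the all-gene median of 0.12. After GC adjustment HMOX1 was at 0.04 and NQO1 at 0.29, below and above the all-gene centre of 0.15. GCLC, the catalytic subunit of the enzyme that begins glutathione synthesis, was at 14.4 TPM in the POH1 siRNA library and 13.2 TPM in the control siRNA library. Its modifier subunit GCLM was at 4.81 TPM in the POH1 siRNA library and 4.79 TPM in the control siRNA library. The log2 differences of the subunits were 0.12 and 0.01, and 0.41 and 0.35 after GC adjustment. TXNRD1, the cytosolic thioredoxin reductase, was at 286 TPM in the POH1 siRNA library and 275 TPM in the control siRNA library. SRXN1, which repairs overoxidised peroxiredoxins, was at 83.5 TPM in the POH1 siRNA library and 81.9 TPM in the control siRNA library; 84.7% of its 50-base windows are shared with AL121758.1, at 0.51 TPM in the POH1 siRNA library and 0.36 TPM in the control siRNA library. The differences of these 6 genes lay between 0.01 and 0.20 on the log2 scale, their summed TPM was 581 in the POH1 siRNA library and 545 in the control siRNA library, and 3 of the 6 were above the all-gene median. The small positive differences of GCLC, GCLM, TXNRD1 and SRXN1 turn below 0 when the libraries are scaled to a median log2 ratio of 0. GC adjustment moved the median of the 6 genes the other way, to 0.25 in place of 0.09. HMOX1 and SRXN1 fell with it, to 0.04 and -0.02, and the others rose.

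The other enzyme genes known as NRF2 targets sat within 1.5-fold, as did 12140 of the 15008 genes. Those of the pentose phosphate pathway, which supplies NADPH, were all above 0. PGD, the phosphogluconate dehydrogenase, was at 445 TPM in the POH1 siRNA library and 338 TPM in the control siRNA library. TALDO1, the transaldolase, was at 558 TPM in the POH1 siRNA library and 442 TPM in the control siRNA library. TKT, the transketolase, was at 418 TPM in the POH1 siRNA library and 370.1 TPM in the control siRNA library. Their log2 differences were 0.40, 0.33 and 0.17, where 9182 of the 15008 genes were above 0. They stayed above 0 under each of 10 other settings of scaling, filter, pseudocount, GC adjustment and summing. The filter settings leave a gene's own difference unchanged, and summing did not move TALDO1 or TKT. The median GC content of the 3 genes was 56.5%, and the median difference after GC adjustment was 0.25; without the median added back TKT was below 0, at -0.095. OSGIN1, a growth inhibitor induced by oxidative stress, was at 43.9 TPM in the POH1 siRNA library and 30.5 TPM in the control siRNA library. That is a log2 difference of 0.51, the highest of the NRF2 target enzymes, in a gene with 63.1% GC and a GC-adjusted value of 0.32. ME1, the cytosolic malic enzyme and another source of NADPH, was at 11.7 TPM in the POH1 siRNA library and 12.5 TPM in the control siRNA library.

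The members with a match to the antioxidant response element core lay within 1.5-fold, as most genes did. These 7 genes, PGD, ME1, GCLM, GSTP1, TXNRD1, MT1X and MT2A, had log2 differences between -0.09 and 0.40, with a median of 0.15, and none was counted as higher or lower, where 10.2% of all genes were higher and 8.88% lower. The 24 members with a promoter entry and no match ran from -1.23 to 0.71, with a median of 0.12, and included the 3 lower genes and AKR1B1. A match is only a run of letters in a 300-base window and is given as a description.

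**Figure D2:**
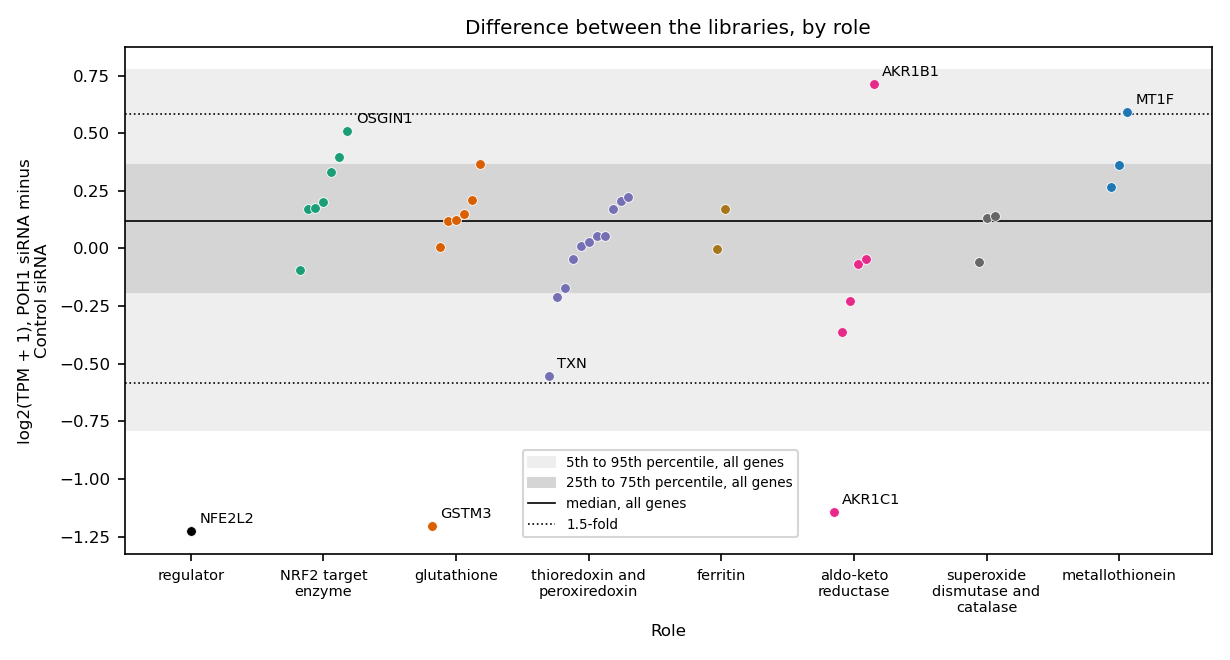
Difference in log2(TPM + 1), POH1 siRNA minus control siRNA, of the 40 genes with a mean of at least 1 TPM, by role; each point is 1 gene. Dark and light bands span the 25th to 75th and the 5th to 95th percentiles of all 15008 genes, and dotted lines mark 1.5-fold. NFE2L2 (-1.23), GSTM3 (-1.21) and AKR1C1 (-1.15) lie below the bands, and AKR1B1 (0.71) and MT1F (0.59) are the points above the upper dotted line.

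Among glutathione genes, 1 of 7 was counted as lower and none as higher, which is near the shares of all genes (8.88% lower and 10.2% higher). GSTM3, a mu-class glutathione transferase, was at 19.2 TPM in the POH1 siRNA library and 45.5 TPM in the control siRNA library. It was 2.37-fold lower (log2 difference -1.21), and 259 genes (1.73%) were as low or lower. In all, 1.45% of its 50-base windows occur in other genes, and at 48.8% GC its adjusted value was -1.09. The pi-class transferase GSTP1, the most abundant of the 7, was at 760 TPM in the POH1 siRNA library and 684 TPM in the control siRNA library. GPX4, which reduces lipid hydroperoxides, was at 649 TPM in the POH1 siRNA library and 596 TPM in the control siRNA library. GPX1, which reduces hydrogen peroxide, was at 389 TPM in the POH1 siRNA library and 302 TPM in the control siRNA library. GPX1 had the highest difference of the group, 0.37, and shares 21.5% of its windows with other genes, chiefly the pseudogene GPX1P1, so reads may be split between them. GSR, which regenerates reduced glutathione, was at 42.7 TPM in the POH1 siRNA library and 36.7 TPM in the control siRNA library. The lower level was therefore seen in GSTM3 and in none of the other 6 at 1.5-fold.

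The thioredoxin and peroxiredoxin genes held no gene past 1.5-fold among 11, where 10.2% of all genes were higher and 8.88% lower. Their median difference was 0.03, against 0.12 in all genes, and 3 of the 11 were above that all-gene median. TXN, the cytosolic thioredoxin, came nearest. It was at 282 TPM in the POH1 siRNA library and 414 TPM in the control siRNA library, a log2 difference of -0.55. With 35.6% GC it has the lowest GC content of the members, and after GC adjustment the value was -0.19; scaling to a median log2 ratio of 0 moved it to -0.69, past 1.5-fold. TXN2, the mitochondrial thioredoxin, was at 92.8 TPM in the POH1 siRNA library and 104.6 TPM in the control siRNA library. TXNIP, which binds and inhibits thioredoxin, was at 70.3 TPM in the POH1 siRNA library and 72.6 TPM in the control siRNA library. Of the thioredoxin partners, TXNRD1 and TXNIP thus stayed level while TXN was below the control.

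Peroxiredoxins, which remove hydrogen peroxide with electrons from thioredoxin or other thiols, were among the most abundant members. PRDX5 was at 1282 TPM in the POH1 siRNA library and 1235 TPM in the control siRNA library. PRDX1 was at 1139 TPM in the POH1 siRNA library and 976 TPM in the control siRNA library. PRDX6 was at 601 TPM in the POH1 siRNA library and 695 TPM in the control siRNA library. Its difference was -0.21, and 0.03 after GC adjustment. PRDX2 was at 404 TPM in the POH1 siRNA library and 350 TPM in the control siRNA library. PRDX4, the form of the endoplasmic reticulum, was at 108 TPM in the POH1 siRNA library and 95.5 TPM in the control siRNA library. PRDX3, the mitochondrial form, was at 84.3 TPM in the POH1 siRNA library and 83.7 TPM in the control siRNA library. The differences of the 6 spanned -0.21 to 0.22, those of PRDX3 and PRDX5 changed sign under 3 and 4 of the 10 other settings, and their sum was 3618 TPM in the POH1 siRNA library and 3435 TPM in the control siRNA library. The order of the 6 levels was the same in both libraries.

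The ferritin genes encode the chains of the iron storage shell and were the most abundant members. FTH1, the heavy chain, was at 8750 TPM in the POH1 siRNA library and 8767 TPM in the control siRNA library. FTL, the light chain, was at 1969 TPM in the POH1 siRNA library and 1748 TPM in the control siRNA library. Together they made up 1.07% of all TPM in the POH1 siRNA library and 1.05% in the control siRNA library. FTH1 shares 40.4% of its 50-base windows with other genes, 20.8% with the pseudogene FTH1P10. The 25 pseudogenes named after FTH1 summed to 141 TPM in the POH1 siRNA library and 193 TPM in the control siRNA library, and with them the FTH1 difference was -0.01.

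Aldo-keto reductases, which reduce aldehydes and ketones, held 1 higher and 1 lower gene among 6, near the shares of all genes (10.2% higher and 8.88% lower). AKR1B1, the aldose reductase, was at 14.1 TPM in the POH1 siRNA library and 8.22 TPM in the control siRNA library. It was 1.72-fold higher (log2 difference 0.71), the highest of all members, and 934 genes (6.22%) were as high or higher; after GC adjustment the value was 0.65, and 0.50, under 1.5-fold, without the median added back. Its relative AKR1B10, known for reducing retinal and lipid aldehydes, was at 14.6 TPM in the POH1 siRNA library and 19.1 TPM in the control siRNA library. AKR1B10 shares 17.4% of its windows, most of them with AKR1B15, which was at 6.71 TPM in the POH1 siRNA library and 12.0499 TPM in the control siRNA library, so the split between these copies is uncertain. The sum of both was 21.3 TPM in the POH1 siRNA library and 31.1 TPM in the control siRNA library, a difference of -0.53. AKR1B1 and AKR1B10 were thus at similar levels in the POH1 siRNA library and further apart in the control siRNA library. AKR1A1, the aldehyde reductase, was at 90.9 TPM in the POH1 siRNA library and 106.6 TPM in the control siRNA library.

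The AKR1C genes encode hydroxysteroid dehydrogenases, and AKR1C3 is known in prostate cancer for making androgens from weaker precursors. AKR1C3 was at 40.4 TPM in the POH1 siRNA library and 41.8 TPM in the control siRNA library. AKR1C1 was at 4.61 TPM in the POH1 siRNA library and 11.4 TPM in the control siRNA library. AKR1C2 was at 1.59 TPM in the POH1 siRNA library and 1.72 TPM in the control siRNA library. AKR1C1 was therefore the lower gene of the family, 2.47-fold by TPM and -1.15 as a log2 difference. AKR1C1 and AKR1C2 are near-identical copies: 28.7% of the windows of AKR1C1 and 52.2% of those of AKR1C2 occur in other genes, mostly in each other, so their separate values are uncertain. Their sum was 6.20 TPM in the POH1 siRNA library and 13.1 TPM in the control siRNA library, a log2 difference of -0.97. With AKR1C3 added, the sum was 46.6 TPM in the POH1 siRNA library and 54.9 TPM in the control siRNA library, a log2 difference of -0.23.

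SOD1, the cytosolic superoxide dismutase, was at 689 TPM in the POH1 siRNA library and 717 TPM in the control siRNA library. SOD2, the mitochondrial enzyme, was at 76.5 TPM in the POH1 siRNA library and 69.7 TPM in the control siRNA library. Catalase, encoded by CAT, was at 67.1 TPM in the POH1 siRNA library and 60.9 TPM in the control siRNA library. The log2 differences of the 3 were -0.06, 0.13 and 0.14, all within 1.5-fold, as most genes were. After GC adjustment they were 0.05, 0.26 and 0.39, so the direction of SOD1 depends on that setting. SOD2 overlaps WTAP on the opposite strand, which was at 25.1 TPM in the POH1 siRNA library and 28.4 TPM in the control siRNA library.

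The measured metallothioneins were all above the control, though only 1 passed 1.5-fold. MT2A was at 1534 TPM in the POH1 siRNA library and 1192 TPM in the control siRNA library. MT1X was at 105.7 TPM in the POH1 siRNA library and 87.7 TPM in the control siRNA library. MT1F was at 10.4 TPM in the POH1 siRNA library and 6.57 TPM in the control siRNA library. The log2 differences were 0.36, 0.27 and 0.59, each above the all-gene median. Each was above 0 under the 10 other settings, though the filter settings leave a gene's own difference unchanged. MT1F lies just past 1.5-fold (0.58), where 9.99% of all genes were as high or higher, and in 5 of the 10 settings it fell short of it. MT1E was listed at 0 in both libraries, and MT1M at 0.188 TPM in the POH1 siRNA library and 0 in the control siRNA library, so neither reached the minimum. MT2A made up 93.0% of the sum of the 3 measured genes in the POH1 siRNA library and 92.7% in the control siRNA library. That sum was 1650 TPM in the POH1 siRNA library and 1286 TPM in the control siRNA library, a 1.28-fold difference.

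The promoters of MT2A and MT1X are shown because these are the most abundant metallothioneins and both were above the control. Capitals mark matches to TGCNCNC, the core of the metal response element, on either strand; each line is the 300-base RefSeq window of GRCh38.p14 on the plus strand.
MT2A, chr16:56608334-56608633: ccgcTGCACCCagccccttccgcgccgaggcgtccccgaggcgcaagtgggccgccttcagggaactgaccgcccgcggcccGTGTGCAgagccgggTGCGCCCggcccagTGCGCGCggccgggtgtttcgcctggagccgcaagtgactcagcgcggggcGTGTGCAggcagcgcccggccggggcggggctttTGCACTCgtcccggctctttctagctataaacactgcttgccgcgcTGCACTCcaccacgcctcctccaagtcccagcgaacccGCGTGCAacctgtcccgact
MT1X, chr16:56682220-56682519: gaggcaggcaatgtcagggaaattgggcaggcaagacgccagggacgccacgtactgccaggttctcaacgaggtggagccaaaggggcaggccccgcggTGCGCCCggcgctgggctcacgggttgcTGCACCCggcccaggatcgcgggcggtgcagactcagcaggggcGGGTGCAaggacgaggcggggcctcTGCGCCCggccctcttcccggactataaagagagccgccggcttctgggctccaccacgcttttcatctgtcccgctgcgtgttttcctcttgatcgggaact
MT2A holds 8 matches, 5 on its own strand, and MT1X holds 4, 3 on its own strand. Of all promoters, 55.2% hold at least 1 match, 2.78% at least 4 and 0.0879% at least 8. Of the 31 members with an entry, 22 (71.0%) hold at least 1, the lower gene GSTM3 among them. The zinc-sensing factor gene MTF1 was at 4.30 TPM in the POH1 siRNA library and 4.0003 TPM in the control siRNA library. Of the 8 other metallothionein and zinc genes that reached the minimum, none passed 1.5-fold, where 10.2% of all genes were higher and 8.88% lower. Their median was 0.09. SLC30A1, a zinc exporter, did not reach it, at 0.479 TPM in the POH1 siRNA library and 0.461 TPM in the control siRNA library. SLC39A14, a zinc and iron importer, was farthest from the control at 30.2 TPM in the POH1 siRNA library and 20.1 TPM in the control siRNA library.

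Regulators around NRF2 ran from -2.08 to 0.76 on the log2 scale. Of 14 genes, NFE2L2 included, 1 was higher and 4 were lower, with a median of 0.25; 10.2% of all genes were higher and 8.88% lower. After GC adjustment 2 were higher, BACH1 (0.89) and GSK3B (0.62), and 2 were lower, NFE2L2 and MAFF. In that setting 12.6% of all genes were higher and 5.20% lower. GSK3B, a kinase that marks NRF2 for destruction, is named after its value was seen. It was at 0.37 before adjustment and 0.47 without the median added back, both within 1.5-fold, so its call depends on that centring. MAFF, a small MAF protein that pairs with NRF2 or represses without it, was at 13.3 TPM in the POH1 siRNA library and 59.5 TPM in the control siRNA library. It was 4.46-fold lower (log2 difference -2.08), and -2.23 after GC adjustment at 59.4% GC. The other small MAF genes stood the other way: MAFK was at 50.02 TPM in the POH1 siRNA library and 29.2 TPM in the control siRNA library. MAFG was at 36.4 TPM in the POH1 siRNA library and 26.2 TPM in the control siRNA library. MAFK was counted as higher (0.76) and MAFG was within 1.5-fold (0.46), both named after their values were seen. After GC adjustment MAFK was at 0.57, under 1.5-fold. MAFK overlaps TMEM184A on the opposite strand, which was at 25.4 TPM in the POH1 siRNA library and 14.0 TPM in the control siRNA library, so its value is uncertain.

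In the KEAP1 ligase, KEAP1 was at 92.2 TPM in the POH1 siRNA library and 64.4 TPM in the control siRNA library. CUL3 was at 36.4 TPM in the POH1 siRNA library and 62.1 TPM in the control siRNA library. RBX1, named after its value was seen, was at 46.3 TPM in the POH1 siRNA library and 75.8 TPM in the control siRNA library. The adaptor was thus above the control (0.51, within 1.5-fold), and the scaffold and the RING subunit were lower (-0.76 and -0.70). After GC adjustment KEAP1 (62.1% GC) was at 0.33, CUL3 at -0.37 and RBX1 at -0.44, all within 1.5-fold. Without the median added back KEAP1 was at 0.19, CUL3 at -0.51 and RBX1 at -0.59, so the call of RBX1 depends on that centring. BACH1, the repressor that competes with NRF2 for its sites, was at 2.54 TPM in the POH1 siRNA library and 1.49 TPM in the control siRNA library.

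**Figure D3:**
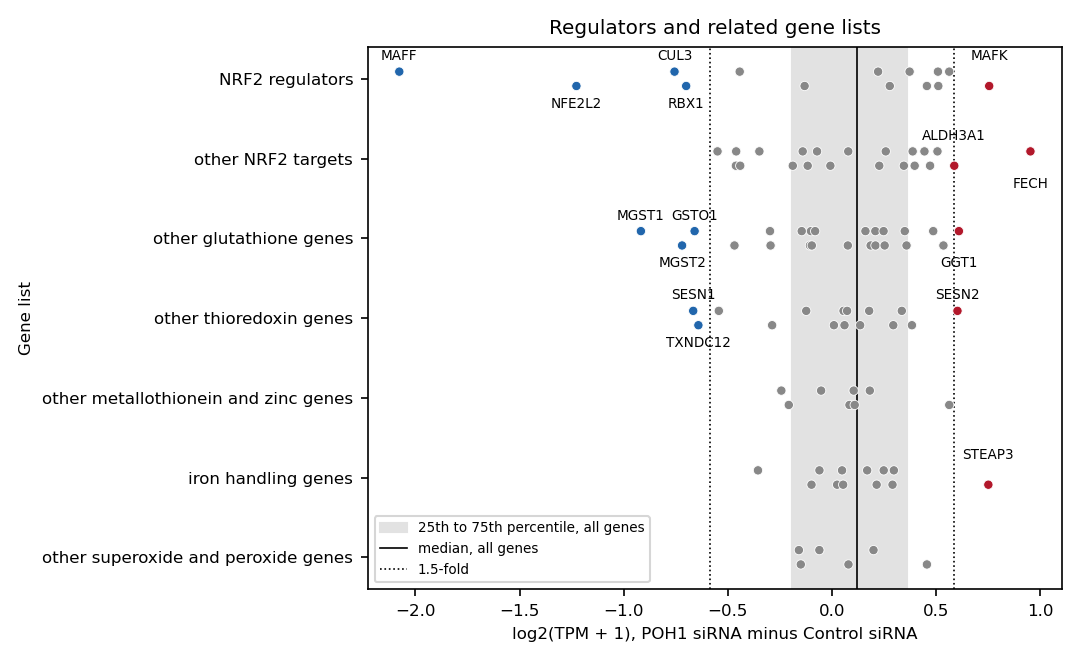
Difference in log2(TPM + 1), POH1 siRNA minus control siRNA, for NRF2 regulators (NFE2L2 among them) and 6 lists of related genes outside the set; each point is 1 gene with a mean of at least 1 TPM, blue from 1.5-fold lower and red from 1.5-fold higher. MAFF lies farthest out at -2.08, and most other genes fall between the dotted 1.5-fold lines.

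Related genes outside the set were mostly within 1.5-fold as well. Of 21 other NRF2 targets that reached the minimum, 2 were higher and none was lower, with a median of 0.08, where 10.2% of all genes were higher and 8.88% lower. The second higher gene, ALDH3A1, an aldehyde dehydrogenase, was at 4.58 TPM in the POH1 siRNA library and 2.71 TPM in the control siRNA library, and after GC adjustment its difference of 0.59 was 0.44, under 1.5-fold. FECH, the ferrochelatase that completes heme, was at 20.01 TPM in the POH1 siRNA library and 9.85 TPM in the control siRNA library. SLC7A11, the cystine transporter, did not reach the minimum, at 0.802 TPM in the POH1 siRNA library and 0.711 TPM in the control siRNA library. Of the genes that reached the minimum, FECH was farthest from the control, with a log2 difference of 0.95.

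Of 23 other glutathione genes, 3 were lower and 1 was higher, with a median of 0.08, where 10.2% of all genes were higher and 8.88% lower. MGST1, a microsomal glutathione transferase, was at 87.4 TPM in the POH1 siRNA library and 166 TPM in the control siRNA library. MGST2 was at 51.5 TPM in the POH1 siRNA library and 85.4 TPM in the control siRNA library. GSTO1, an omega-class transferase, was at 79.6 TPM in the POH1 siRNA library and 126 TPM in the control siRNA library. Their GC-adjusted values were -0.48, under 1.5-fold, for MGST1, -0.59 for MGST2 and -0.62 for GSTO1. Without the median added back MGST1 was at -0.62, past 1.5-fold.

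Of 15 other thioredoxin genes, 1 was higher (SESN2) and 2 were lower (SESN1 and TXNDC12), with a median of 0.06, where 10.2% of all genes were higher and 8.88% lower. SESN1 was near the minimum, at 0.661 TPM in the POH1 siRNA library and 1.64 TPM in the control siRNA library. TXNDC12 was at 25.7 TPM in the POH1 siRNA library and 40.6 TPM in the control siRNA library. AL445685.3 shares 46.5% of its 50-base windows, and KTI12 overlaps it on the same strand, so its value is uncertain. After GC adjustment SESN2, SESN1 and TXNDC12 were at 0.44, -0.23 and -0.51, all under 1.5-fold. TXNL1 at 0.74, named after its value was seen, was then the 1 higher gene, where 12.6% of all genes were higher. Without the median added back TXNDC12 was at -0.65. Of 12 iron handling genes, 1 was higher and none lower, with a median of 0.11, where 10.2% of all genes were higher and 8.88% lower. After GC adjustment 2 were higher, STEAP3 and IREB2 (both 0.67), where 12.6% of all genes were higher and 5.20% lower. Without the median added back both were at 0.53, under 1.5-fold. IREB2 is named after its value was seen. The higher gene before adjustment was STEAP3, an iron reductase, at 21.6 TPM in the POH1 siRNA library and 12.4 TPM in the control siRNA library. TFRC, the transferrin receptor, was at 21.8 TPM in the POH1 siRNA library and 20.9 TPM in the control siRNA library. None of the 6 other superoxide and peroxide genes passed 1.5-fold (median 0.01), where 10.2% of all genes were higher and 8.88% lower.

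GC content moved with the difference in the members as it did in all genes. The Spearman correlation across the 40 members was 0.62, and 0.46 across 10114 genes of at least 5 TPM; genes share both libraries and are not independent replicates, so these are descriptions. The 9 members with up to 45% GC had a median difference of -0.09, and the 3881 genes of that class had -0.17. The 12 members above 55% GC had a median of 0.19, and the 5316 genes of that class had 0.28. AKR1C1 (43.3% GC) and NFE2L2 (44.0% GC) lie in the first class. PSMD14, outside the set, has 44.4% GC. Its difference of -0.52 was -0.24 after GC adjustment and -0.39 without the median added back. The part of GC content in the single differences was not tested beyond the adjusted values given beside them.

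**Figure D4:**
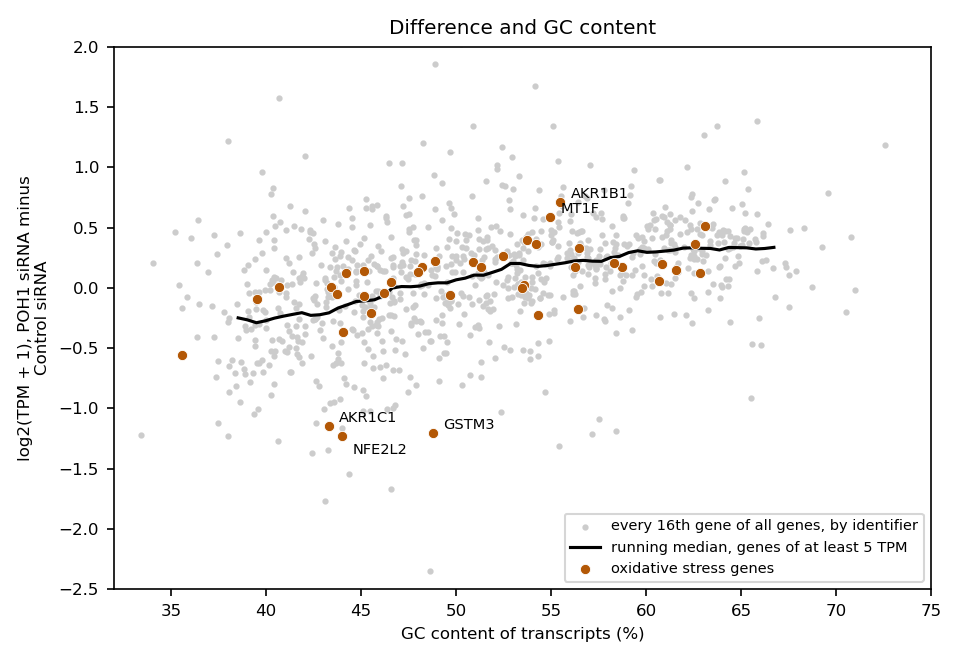
Difference in log2(TPM + 1), POH1 siRNA minus control siRNA, against the GC content of the transcripts in percent. Orange points are the 40 oxidative stress genes, grey points every 16th gene of all genes with a mean of at least 1 TPM, and the line is the running median of genes of at least 5 TPM. Most members follow the line, and NFE2L2, AKR1C1 and GSTM3 lie furthest below it.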

How the data were processed

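Libraries were made from total RNA with an mRNA-seq kit, per the labels' protocols. RNA sequencing of PC3 cells gave 1 library per group. The tools CASAVA and HISAT2 and the build hg19 come from the submitters' processing notes; annotation, strand, depth and the quantifier were not stated there. The authors deposited TPM per gene, and the columns summed to 999968 TPM (POH1 siRNA) and 999955 TPM (control siRNA). TPM keeps no depth, so no counting interval is given.

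Symbols were found for 57392 of 58174 identifiers; SOD2 took its name from GENCODE release 29. GENCODE release 29 annotates GRCh38, so it served for GC content, overlaps and shared 50-base windows only. Differences used a pseudocount of 1 and a mean of at least 1 TPM, which understates changes of low genes; folds are ratios of TPM. The calculation was tested on simulated data with Python 3.11.15, numpy and pandas. The members and lists were chosen with earlier results of these data known. The rule for named genes accounts for every member and takes up to 3 genes per other list plus KEAP1, BACH1, MTF1, SLC30A1, SLC7A11 and TFRC; genes outside it are said to be named after their values were seen, and some genes of these lists are not reported here. Promoters came from RefSeq (GRCh38.p14).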

Additional observations from a re-analysis of the deposited data

How the results depend on the processing

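Among 10 other settings, NFE2L2 (-1.35 to -0.92), GSTM3 (-1.34 to -1.06) and AKR1C1 (-1.29 to -0.77) were at least 1.5-fold lower in each. The filter settings among the 10 leave a gene's own difference unchanged. The 3 lower members became 4, with TXN added, under median scaling, trimmed mean scaling, and TPM without mitochondrial and the 50 most abundant genes. The share of all genes called lower rose as well, from 8.88% to 12.3%, 12.0% and 11.5%. The 2 higher members became 1 (AKR1B1) under those 3 settings and after GC adjustment, and 0 with a pseudocount of 5 or counting from 2-fold. The median difference of the members, 0.12, was 0.18 after GC adjustment, 0.13 with a filter at 5 TPM, 0.11 with a pseudocount of 5, 0.054 without mitochondrial and the 50 most abundant genes, 0.0004 with trimmed mean scaling and -0.011 with median scaling; the last lowers the POH1 siRNA library by a log2 factor of 0.14. Of all genes counted at 1.5-fold, 53.5% were higher; this was 34.2% with median scaling, 35.9% with trimmed mean scaling and 70.8% after GC adjustment. Depth is unknown, so the counting error of low genes such as AKR1C2 cannot be given. GC adjustment adds back a median of 0.14. Without it, a setting chosen after seeing the data and not among the 10, the same 3 members were lower, 0 were higher (AKR1B1 at 0.50) and the members' median was 0.039. In that setting 7.72% of all genes were higher and 7.98% lower. No paired analysis was possible because each group held 1 library.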
